A study of Mus musculus with 6 samples.

Results

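The expression of 41 genes of the basement membrane and of the receptors that bind it was followed in murine ureter explants treated with LiCl. The genes were chosen by symbol and code for laminin chains, nidogens, the proteoglycans perlecan and agrin, the FRAS/FREM proteins, nephronectin, fibronectin, vitronectin, integrin chains, dystroglycan and the laminin receptor BCAM. All 41 were found in the count table, and 40 of them had 10 or more counts in at least 3 of the 6 samples, a level that 18328 of the 56748 genes of the table reached. The exception was *Vtn*, which codes for vitronectin: it had 0 counts in every sample, which allows a level of up to 0.0959 to 0.105 CPM (counts scaled to the size of the library) in a library (3 counts, counting error only).

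Ureters of wildtype NMRI mouse embryos were dissected at E12.5 and kept for 18 h on transwell membranes in DMEM/F12 medium with GlutaMAX, antibiotics, amino acids and pyruvate. The control group received water (3 samples), and the other group received 15 mM LiCl (3 samples). LiCl inhibits the kinase GSK3 and thereby activates canonical WNT signaling, and the comparison asks which transcripts of whole ureters change with it. The sources used here do not give the number of ureters in a sample, the sex of the embryos, or whether the samples of a group were separate cultures, so that the p-values measure the spread between these samples only. The explant is whole tissue, in which fewer cells of a type and less RNA per cell cannot be told apart.

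A basement membrane is a thin sheet of matrix between an epithelium and its mesenchyme, and it also surrounds endothelial, muscle and glial cells. Its core is a network of laminins, each a trimer of an α, a β and a γ chain, which nidogens, perlecan and agrin join to a network of type IV collagen. Integrins, each a dimer of an α and a β chain, bind laminins, fibronectin and other matrix proteins from the cell side, as do dystroglycan and BCAM. In the developing kidney, nephronectin is the ligand of integrin α8β1, and the FRAS/FREM proteins form a complex under embryonic epithelia.

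Counts per library summed to between 28473436 and 31266945. *Axin2*, a direct target of canonical WNT signaling, was taken as a check of the treatment. It stood at 74.7, 71.0 and 69.5 CPM in the controls and at 136, 134 and 138 CPM with LiCl, a log2 fold change of 0.92 (SE 0.05, adjusted p = 1.4e-06 by edgeR's quasi-likelihood test). The libraries LiCl 1 and LiCl 3 carried more transcripts of skeletal muscle than the rest. The 8 markers of that tissue summed to 37.6 and 79.4 CPM there, against 8.52 CPM in LiCl 2 and 9.56 to 10.6 CPM in the controls. CPM values are scaled between libraries by TMM factors of 0.98 to 1.03. Fold changes are given on the log2 scale as LiCl over control.

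The study called a gene changed at an adjusted p below 0.05 with a log2 fold change over 1 or under -1. By that rule none of the 40 genes rose, where 2.74% of the 18188 genes tested did, and 1 gene, *Fras1*, fell (2.5%), where 4.59% of all genes did. By the adjusted p alone, 4 genes rose (10%; *Lamc3*, *Lamb3*, *Bcam* and *Npnt*), against 21.1% of all genes, and 13 fell (32.5%), against 22.4%. Those that fell were *Fras1*, *Lamb1*, *Fn1* and 10 integrin chains. In either direction, the first rule called 2.5% of the 40 genes and 7.33% of all genes, and the second called 42.5% and 43.5%. The median log2 fold change of the 40 genes was -0.13, and that of all genes tested was -0.01. The 3 LiCl samples lay above the 3 controls for 5 of the genes (background 26.4%) and below them for 14 (35%; background 27.8%). The number that fell went from 13 to 8 without control 3, to 9 without control 1 and to 6 when LiCl 1 and LiCl 3, the libraries with muscle transcripts, were left out. With those libraries left out, *Fras1* stayed past both thresholds. *Npnt* lost its call and *Lama1* gained one, so the genes that rose were not the same. The LiCl group was then a single sample whose spread was taken from the controls.

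**Figure D1:**
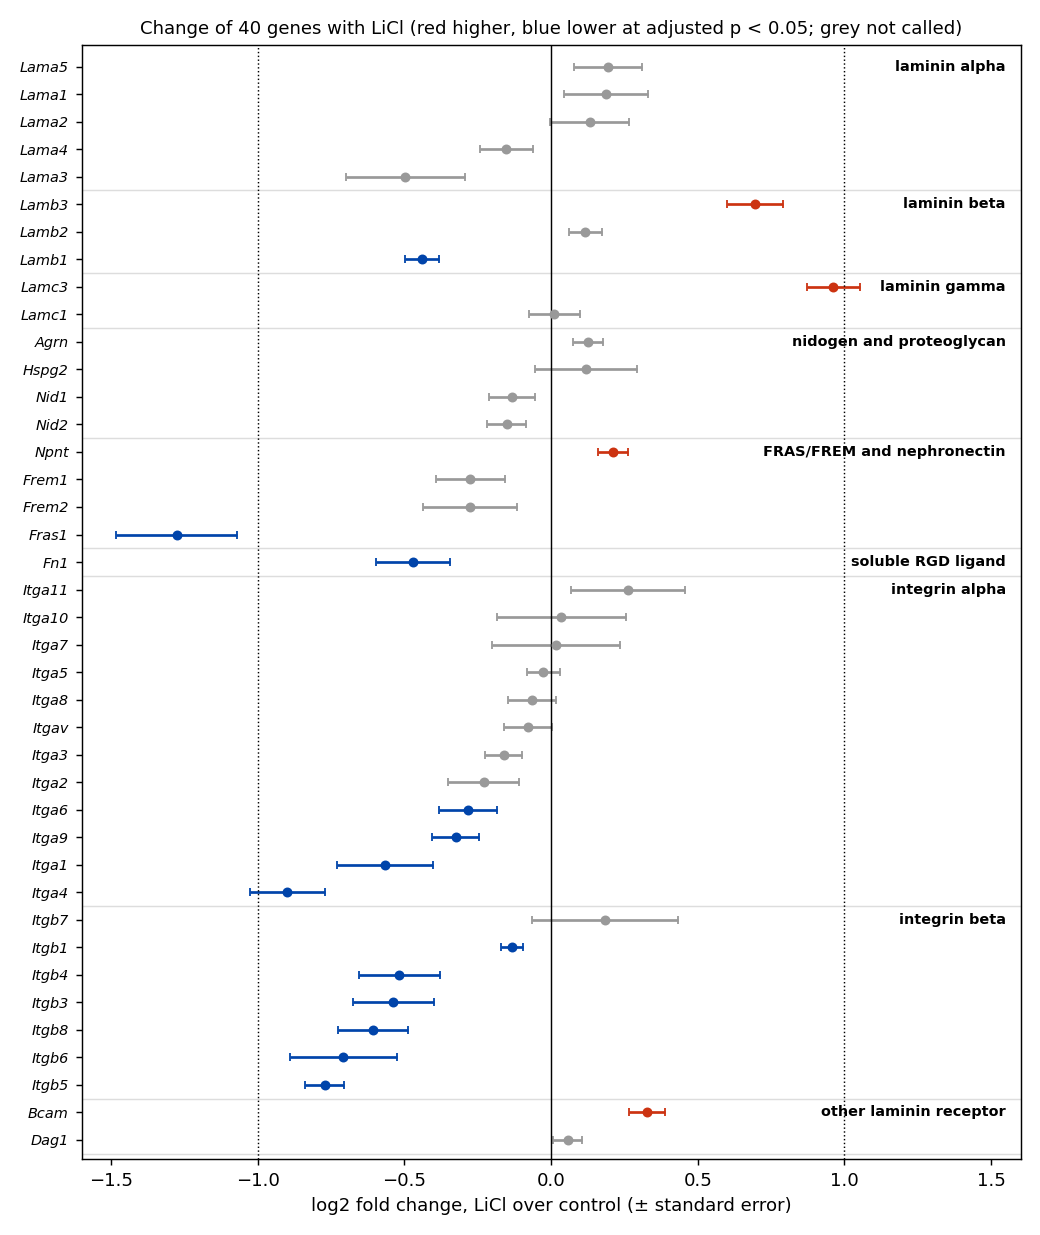
Log2 fold change (LiCl over control, horizontal axis) of the 40 genes, grouped by role, with the standard error as a bar. Red points are the 4 genes that rose and blue points the 13 that fell at an adjusted p below 0.05 (edgeR, n = 3 per group), grey points did not pass, and the dotted lines mark -1 and 1; *Fras1* alone lies past a dotted line.

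For 28 of the 40 genes a promoter sequence was listed by RefSeq (GRCm38.p6), taken from 250 bases before to 50 bases after the start. They had 35 promoters between them, since some genes have several starts. *Fras1* and *Lamc3*, the genes with the largest fall and the largest rise, had no entry. The GC box (GGGCGG, or CCGCCC on the other strand) was found in 19 of the 35 (54.3%), belonging to 16 genes. Of all 32851 promoters, which unlike the 35 were not limited to genes with enough counts here, 35.7% held it. The core of the TCF/LEF motif (CTTTGA, or TCAAAG on the other strand), the site of the factors that bind β-catenin, was found in 5 of the 35 (14.3%; *Frem2*, *Itga1*, *Itga10*, *Lama2* and *Lamb2*) and in 16% of all promoters. Among the genes that fell, 8 had an entry, of which 4 held a GC box and 1 the TCF/LEF core; of the 3 with an entry that rose, 2 held a GC box and 0 the core. Shown are 3 promoters, those of the integrin chain genes *Itga4* and *Itgb5*, which fell most among the integrins, and of the laminin chain gene *Lamb3*, which rose. They lie at chr2:79255176-79255475, chr16:33829415-33829714 and chr1:193301744-193302043, each on the + strand, and capitals mark the GC box on either strand.
Itga4: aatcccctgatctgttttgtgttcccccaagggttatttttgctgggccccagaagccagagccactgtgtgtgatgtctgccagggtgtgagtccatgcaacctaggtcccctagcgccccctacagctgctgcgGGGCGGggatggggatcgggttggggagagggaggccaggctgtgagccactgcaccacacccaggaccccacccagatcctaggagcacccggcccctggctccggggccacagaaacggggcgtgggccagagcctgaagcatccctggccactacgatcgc
Itgb5: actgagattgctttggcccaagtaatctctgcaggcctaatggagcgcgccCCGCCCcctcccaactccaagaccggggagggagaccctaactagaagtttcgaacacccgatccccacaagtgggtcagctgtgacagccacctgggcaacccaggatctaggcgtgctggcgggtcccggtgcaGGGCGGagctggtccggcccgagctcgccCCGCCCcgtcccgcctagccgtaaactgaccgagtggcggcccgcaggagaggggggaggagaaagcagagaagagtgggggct
Lamb3: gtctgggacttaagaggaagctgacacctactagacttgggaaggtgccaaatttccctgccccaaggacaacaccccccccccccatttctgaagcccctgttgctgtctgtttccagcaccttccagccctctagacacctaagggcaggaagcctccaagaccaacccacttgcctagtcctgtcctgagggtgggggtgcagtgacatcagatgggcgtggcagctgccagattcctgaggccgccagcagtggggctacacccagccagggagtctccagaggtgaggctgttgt
The *Itga4* promoter held 1 GC box, that of *Itgb5* held 3 and that of *Lamb3* held 0, and none of the 3 held the TCF/LEF core in this window. A match of letters is a description and not a binding site.

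Levels can be compared between genes only per length, for which the deposited FPKM values were used. Averaged over the 6 samples, *Itgb1*, the shared partner of most integrin α chains, had the highest level of the 40 genes (152 FPKM). It was followed by *Agrn* (101 FPKM), *Bcam* (97.1 FPKM), *Fn1* (64.4 FPKM) and *Lamc1* (63.4 FPKM). The lowest levels were those of *Lama3* (0.302 FPKM), *Itga11* (0.321 FPKM) and *Itga7* (0.339 FPKM). Of the laminin genes, *Lama5* led the α chains (24.1 FPKM) and *Lamc1* the γ chains. Among the β chains the order differed between the groups: *Lamb1* had 46.0 FPKM and *Lamb2* 40.6 FPKM in the controls, and with LiCl they had 34.3 and 44.6 FPKM. This order depends on the gene lengths used for FPKM, since in CPM *Lamb1* was the higher in both groups. Among the integrins, *Itga5*, the α chain of the fibronectin receptor, led the α chains with 22.7 FPKM, as did *Itgb1* the β chains.

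**Figure D2:**
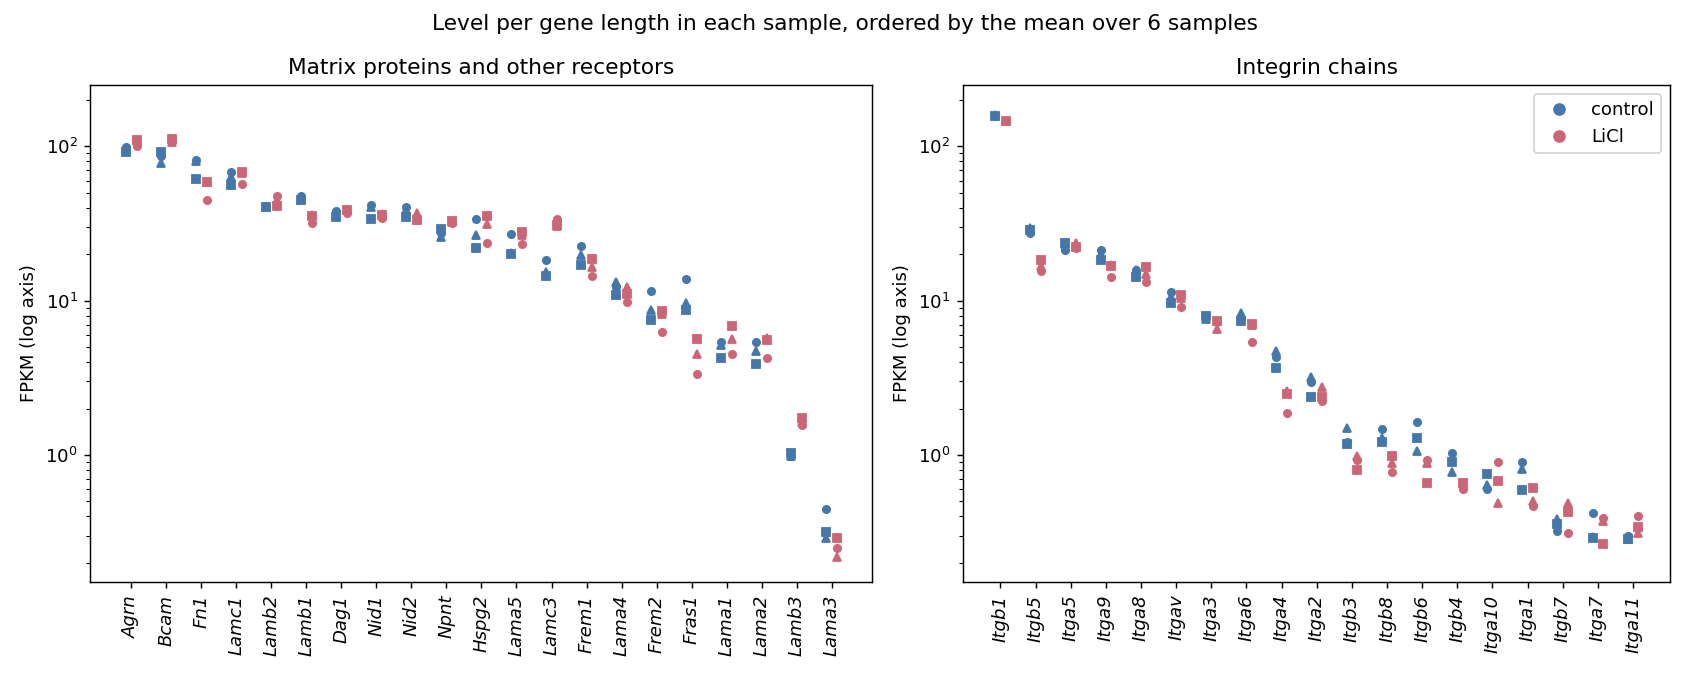
FPKM of each of the 40 genes in each sample (log axis), control in blue and LiCl in red, with circle, square and triangle for replicates 1, 2 and 3 and genes ordered by their mean. Matrix proteins and other receptors are on the left and integrin chains on the right; levels run from about 152 FPKM for *Itgb1* down to 0.302 FPKM for *Lama3*.

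Of the 10 laminin chain genes, 2 rose and 1 fell at an adjusted p below 0.05 (21.1 and 22.4% of all genes), and the median log2 fold change was 0.12. The largest change was a rise of *Lamc3*, the γ3 chain gene. It stood at 114, 88.6 and 94.5 CPM in the controls and at 207, 188 and 184 CPM with LiCl, so that the lowest LiCl sample lay well above the highest control. This was a 1.95-fold increase (log2 fold change 0.96, SE 0.09, adjusted p = 5e-05 by edgeR). It stayed just under the study's fold threshold and passed it without control 1 or without LiCl 3, when the log2 fold change reached up to 1.08. *Lamc1*, which codes for the γ1 chain of most laminins, showed 578, 470 and 527 CPM in the controls and 470, 565 and 552 CPM with LiCl. Both groups covered the same range, and the log2 fold change was 0.01 with a 95% interval from -0.19 to 0.21.

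*Lamb1*, the gene of the β1 chain found in early embryonic basement membranes, was the laminin gene that fell. Its 484, 446 and 454 CPM in the controls lay apart from 314, 353 and 353 CPM with LiCl (log2 fold change -0.44, SE 0.06, adjusted p = 0.00035 by edgeR). *Lamb2*, the β2 chain gene, stood at 254, 246 and 250 CPM in the controls and at 289, 251 and 273 CPM with LiCl. The groups overlapped, and the log2 fold change of 0.12 had a 95% interval from -0.01 to 0.24 (adjusted p = 0.12 by edgeR, and 0.027 without LiCl 2). *Lamb3* codes for the β3 chain, which occurs only in laminin-332, the laminin of epithelial anchoring sites. It rose 1.62-fold from a low level, 6.68, 6.86 and 6.59 CPM in the controls against 10.3, 11.5 and 10.8 CPM with LiCl (log2 fold change 0.70, SE 0.09, adjusted p = 0.00041 by edgeR). *Lama3*, the α3 chain gene, was at 3.83 ± 0.913 CPM in the controls and at 2.71 ± 0.388 CPM with LiCl (SD, n = 3 each; log2 fold change -0.50, adjusted p = 0.076 by edgeR).

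None of the 5 laminin α chain genes passed the test, where 43.5% of all genes did. *Lama5*, the α5 chain gene of mature epithelial basement membranes, stood at 311, 229 and 233 CPM in the controls and at 266, 318 and 300 CPM with LiCl. Control 1 lay within the LiCl range, and the log2 fold change was 0.19 with a 95% interval from -0.06 to 0.45. Without control 1 it was 0.35 (adjusted p = 0.0073 by edgeR), and *Lama5* was also called without a filter. *Lama1*, *Lama2* and *Lama4* had log2 fold changes of 0.19, 0.13 and -0.15, with intervals that all contained 0. Of these, *Lama1* came to 0.33 without LiCl 1 (adjusted p = 0.05 by edgeR, just past the threshold).

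**Figure D3:**
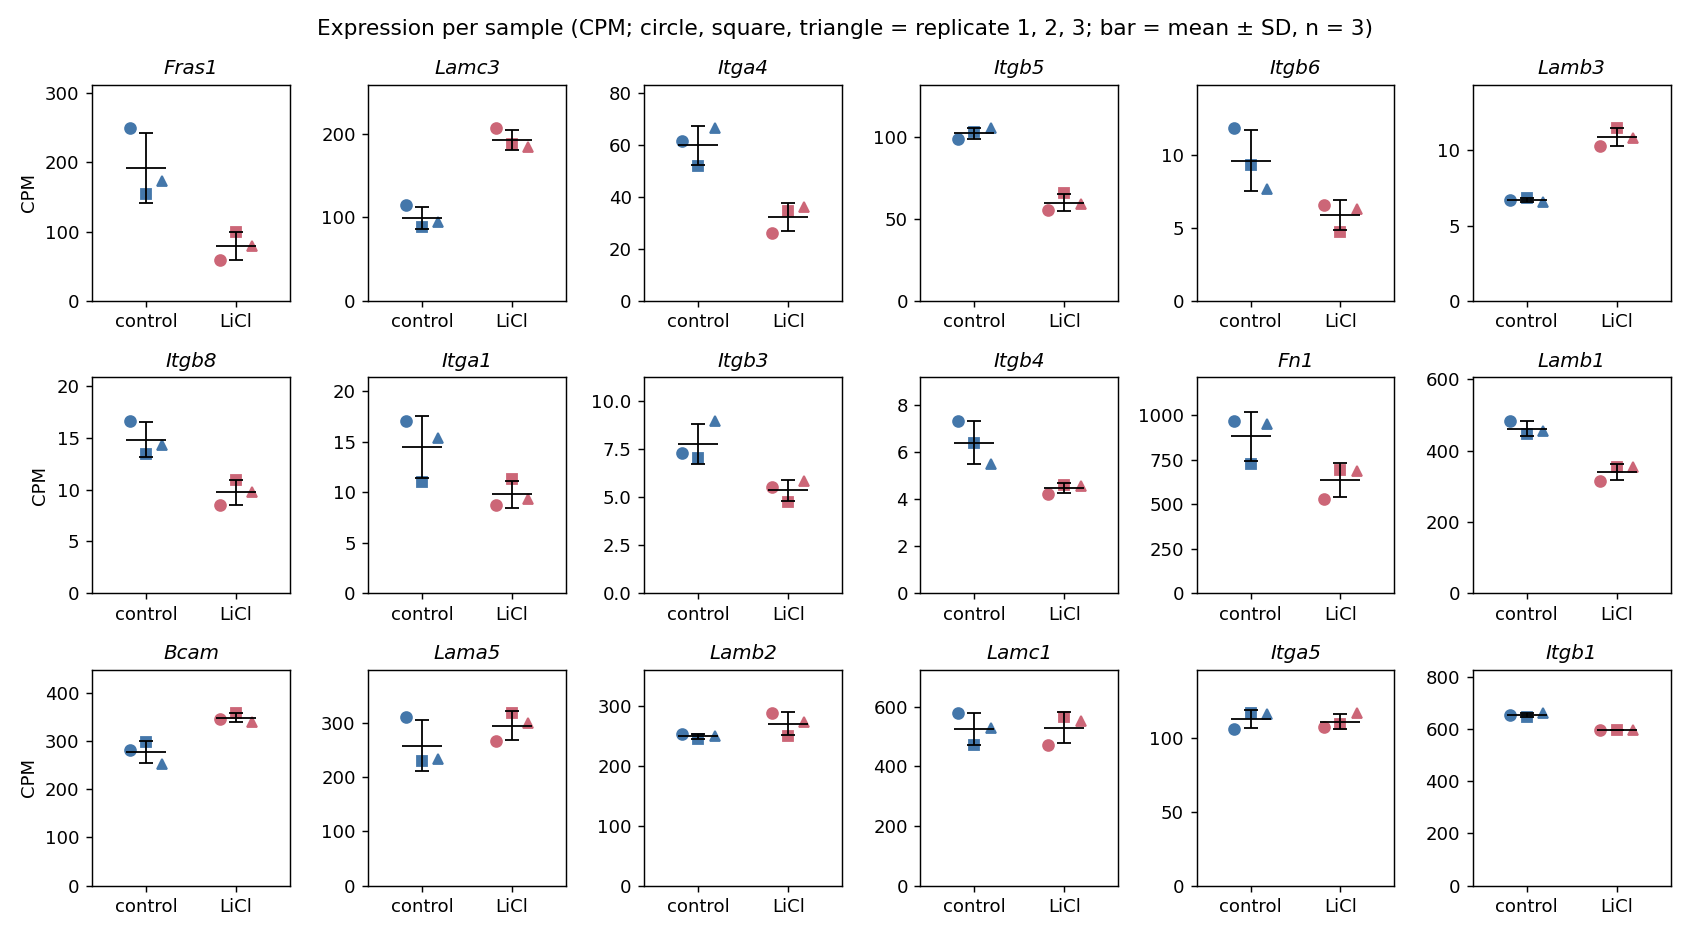
CPM per sample (vertical axes from 0) of the 13 genes with the largest changes at an adjusted p below 0.05 and of the most abundant chain (mean FPKM over all samples) of each laminin and integrin family that was not among them, with circle, square and triangle for replicates 1, 2 and 3 and bars for mean ± SD (n = 3). The groups do not overlap for *Fras1*, *Lamc3* or *Itgb5* and they do for *Itga1*, *Lama5*, *Lamb2*, *Lamc1* and *Itga5*.

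To compare the chains of a family with each other, the share of each chain in the summed FPKM of the chains of its family among the 41 genes was taken in each sample. The γ3 chain gene *Lamc3* made up 21.2, 20.4 and 19.6% of the summed FPKM of *Lamc1* and *Lamc3* in the controls and 37.5, 31.1 and 31.2% with LiCl. Its mean share went from 20.4% ± 0.80 to 33.3% ± 3.64 (SD, n = 3 each), and that of *Lamc1* from 79.6% to 66.7%. Among the β chains, *Lamb1* led in the controls with 53.3, 52.0 and 52.1%, and *Lamb2* led with LiCl with 58.8, 52.5 and 54.7%. The order of these chains was the same within each group in all 3 samples. It rests on the gene lengths behind the FPKM values (9917 bases for *Lamb1*, 6082 for *Lamb2*). In CPM, not divided by length, *Lamb1* lay above *Lamb2* in both groups (means 461 and 250 in the controls, 340 and 271 with LiCl). *Lama5* held 50.2% ± 3.44 of the α chain signal in the controls and 54.0% ± 1.35 with LiCl. The 3 control and 3 LiCl shares of *Lamc3*, *Lamc1*, *Lamb1*, *Lamb2* and *Lamb3* did not overlap, for which the exact two-sided permutation test gave p = 0.1, the smallest value that 3 against 3 samples allow (0.17 after adjustment over 29 shares). The same held for *Lama3*, for *Lama4* (mean 27.4% in the controls and 23.0% with LiCl) and for many integrin chains, so it does not set these chains apart. *Lamc1* and *Lamc3* make up their family alone, so their shares are a single result. For *Lama5* the exact p was 0.2.

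**Figure D4:**
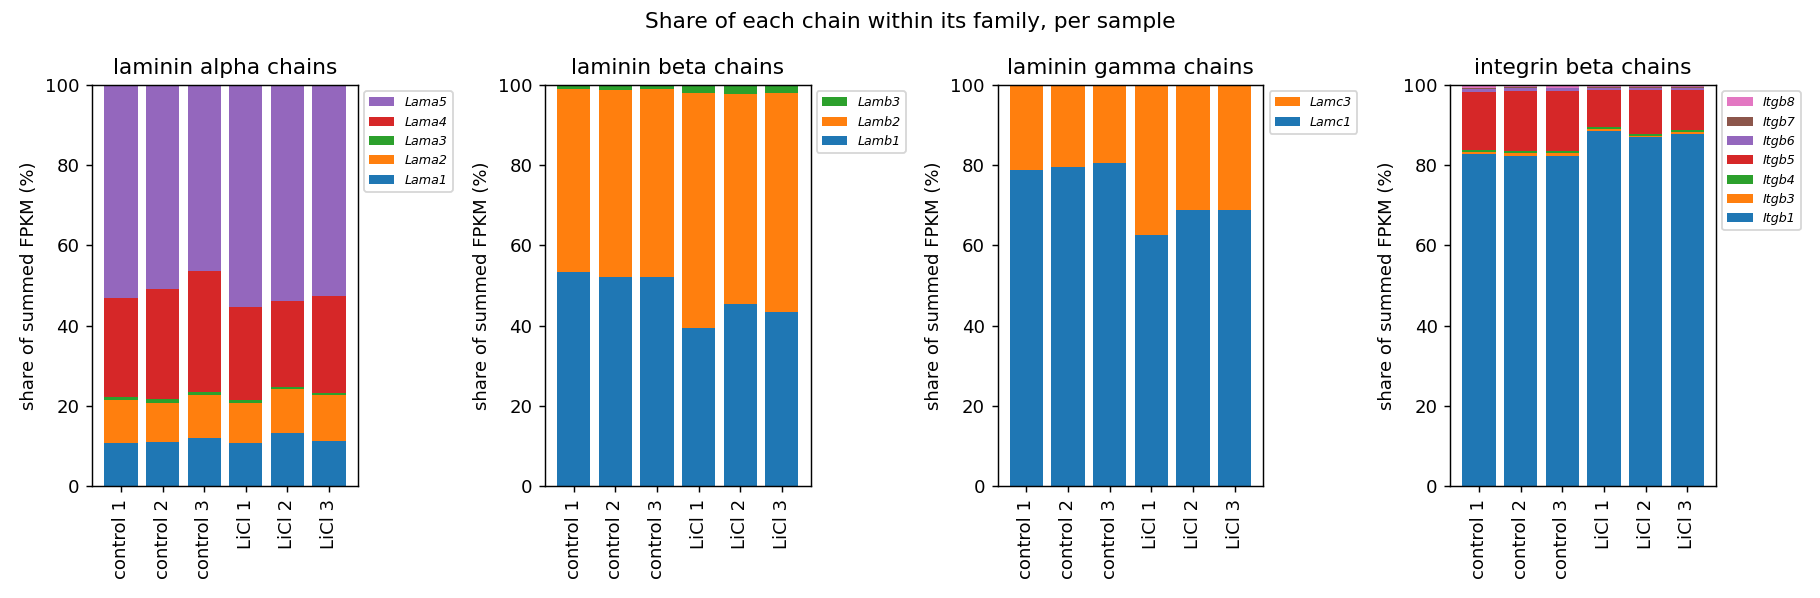
Share (%) of each chain gene in the summed FPKM of its family in each of the 6 samples, for laminin α, β and γ chains and integrin β chains, the sum being taken over the chains shown. The *Lamc3* segment takes 19.6 to 21.2% of the control bars and 31.1 to 37.5% of the LiCl bars, and the *Itgb5* segment is narrower in the LiCl bars.

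The genes of the proteins that join the laminin network to type IV collagen did not pass the test. These were *Nid1* and *Nid2*, which code for the nidogens, *Hspg2*, which codes for perlecan, and *Agrn*, which codes for agrin, with log2 fold changes of -0.13, -0.15, 0.12 and 0.13. For *Agrn*, at 905 ± 38.5 CPM in the controls and 987 ± 46.3 CPM with LiCl (SD, n = 3 each), the 95% interval ran from 0.01 to 0.24 (adjusted p = 0.068 by edgeR, and 0.026 without LiCl 1). *Agrn* was also called by DESeq2, with RLE instead of TMM scaling and without a filter. For *Hspg2*, at 410 ± 92.7 CPM in the controls and 445 ± 89.8 CPM with LiCl (SD, n = 3 each), it ran from -0.27 to 0.51. Without control 2, *Nid1* and *Nid2* came to -0.22 and -0.21 (adjusted p = 0.0077 and 0.025 by edgeR). With library sizes only, *Nid2* was called as well.

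The FRAS/FREM complex included the gene with the largest change of the 40. *Fras1*, mutated in Fraser syndrome with renal agenesis and skin blistering, stood at 250, 155 and 172 CPM in the controls and at 59.4, 99.4 and 79.5 CPM with LiCl. All LiCl samples lay below all controls, although the replicates of both groups were widely spread. The level was 2.42-fold lower with LiCl (log2 fold change -1.28, SE 0.21, adjusted p = 0.001 by edgeR), and the log2 fold change lay between -1.47 and -1.04 when any 1 sample was left out. The genes of its partners, *Frem1* and *Frem2*, had log2 fold changes of -0.28 each and did not pass the test (adjusted p = 0.086 and 0.19 by edgeR). *Frem1* passed it without LiCl 2 (-0.37, adjusted p = 0.035) or without control 2 (-0.37, adjusted p = 0.024). It was also called by DESeq2, with library sizes only and without a filter, and *Frem2* was called without a filter. *Npnt*, the gene of nephronectin, rose 1.16-fold, from 140 ± 7.74 to 162 ± 2.87 CPM (SD, n = 3 each; log2 fold change 0.21, SE 0.05, adjusted p = 0.0093 by edgeR). That of its receptor chain, *Itga8*, showed a log2 fold change of -0.06 with a 95% interval from -0.25 to 0.12.

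*Fn1*, which codes for fibronectin, a ligand of integrins α5β1 and α4β1 made mainly by mesenchyme, stood at 969, 723 and 948 CPM in the controls and at 526, 691 and 688 CPM with LiCl. All LiCl samples lay below all controls, but control 2 was close to the upper 2 LiCl samples. The log2 fold change was -0.47 (SE 0.13, adjusted p = 0.015 by edgeR). The call was lost without control 1 (-0.40, adjusted p = 0.053) and without control 3 (-0.41, adjusted p = 0.061). By limma the adjusted p was 0.053 on log2(FPKM + 1), 0.071 on log2(FPKM + 0.1) and 0.12 on log2(FPKM + 1) without a filter.

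None of the 19 integrin chain genes rose and 10 fell at an adjusted p below 0.05, where 21.1% of all genes rose and 22.4% fell, and the median log2 fold change was -0.23. Of the 12 α chains, 4 fell (median -0.12), and of the 7 β chains, 6 fell (median -0.54). The summed FPKM of the β chains was 192 ± 2.58 in the controls and 167 ± 1.15 with LiCl (SD, n = 3 each). For the α chains it was 93.3 ± 3.51 and 83.9 ± 5.69. Neither pair of groups overlapped (exact two-sided permutation p = 0.1 each, the smallest possible). The same held for the sums of the laminin β chains (87.6 and 80.6 FPKM) and γ chains (78.9 and 95.8 FPKM), so it does not set the integrins apart. The laminin α sums overlapped. Most of the integrin β sum came from *Itgb1* (158 and 146 FPKM) and *Itgb5* (28.5 and 16.9 FPKM).

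*Itga4* had the largest change of the α chains. Its product, α4, binds fibronectin and VCAM1 with β1 or β7. It stood at 61.6, 51.8 and 66.5 CPM in the controls and at 26.0, 34.7 and 36.0 CPM with LiCl, a 1.86-fold decrease (log2 fold change -0.90, SE 0.13, adjusted p = 0.0005 by edgeR). *Itga9*, whose product binds tenascin C and other ligands with β1, fell from 155 ± 12.2 to 123 ± 12 CPM (SD, n = 3 each; log2 fold change -0.33, adjusted p = 0.01 by edgeR). *Itga1*, the gene of a collagen receptor chain, stood at 17.1, 11 and 15.3 CPM in the controls and at 8.72, 11.3 and 9.29 CPM with LiCl, so that control 2 and LiCl 2 overlapped (log2 fold change -0.57, SE 0.16, adjusted p = 0.02 by edgeR). This call was lost without LiCl 1 (adjusted p = 0.062), LiCl 3 (0.067), control 1 (0.071) or control 3 (0.069), with the replicate block (0.057) and by limma on FPKM (0.068 to 0.13). *Itga6* codes for the α6 chain of laminin receptors and had 72.2 ± 4.26 CPM in the controls and 59.4 ± 8.53 CPM with LiCl (SD, n = 3 each; log2 fold change -0.28, adjusted p = 0.041 by edgeR). Its call was lost when any sample other than LiCl 2 was left out, with adjusted p-values of up to 0.15, and by limma on FPKM (0.099 to 0.19). The most abundant α chain gene, *Itga5*, stood at 106, 117 and 117 CPM in the controls and at 107, 110 and 117 CPM with LiCl, and the 95% interval of its log2 fold change was -0.15 to 0.10.

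The other α chain genes did not pass the test. *Itga2*, *Itga10* and *Itga11* code for collagen receptor chains, *Itga3* and *Itga7* for laminin receptor chains and *Itgav* for the αv chain that binds RGD sequences. Their log2 fold changes were -0.23, 0.04, 0.26, -0.16, 0.02 and -0.08. Without control 2, *Itga2* came to -0.34 (adjusted p = 0.033 by edgeR), and *Itga3* was called with library sizes only. *Itga7*, which is known from skeletal muscle, stood at 3.48, 2.38 and 2.42 CPM in the controls and at 3.19, 2.15 and 3.02 CPM with LiCl. Within the LiCl group it was lowest in LiCl 2, the library without the extra muscle transcripts, and their part in its level was not tested.

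Among the β chain genes, *Itgb5*, whose product pairs with αv to bind vitronectin and other RGD ligands, had the largest change. It stood at 98.6, 103 and 106 CPM in the controls and at 55.3, 65.7 and 59.0 CPM with LiCl, a 1.71-fold decrease with little spread within the groups (log2 fold change -0.77, SE 0.07, adjusted p = 3e-05 by edgeR). Its share of the β chain signal went from 14.8% ± 0.42 to 10.1% ± 0.81, and that of *Itgb1* from 82.5% ± 0.18 to 87.7% ± 0.78 (SD, n = 3 each; exact two-sided permutation p = 0.1, adjusted 0.17). The level of *Itgb1* itself fell slightly, from 653, 647 and 662 CPM to 598, 597 and 595 CPM (log2 fold change -0.13, SE 0.04, adjusted p = 0.019 by edgeR). The groups lay apart with a spread of a few CPM, yet the call was lost without LiCl 2 (adjusted p = 0.051), LiCl 3 (0.085) or control 3 (0.092). It was also lost by DESeq2 (adjusted p = 0.051), by edgeR without a filter (0.12) and by limma on log2(FPKM + 1) (0.058) or log2(FPKM + 0.1) (0.068).

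*Itgb6*, *Itgb8* and *Itgb3*, whose products can also pair with αv, were expressed at low levels. *Itgb6*, the gene of an epithelial chain that activates latent TGFβ, stood at 11.8, 9.28 and 7.67 CPM in the controls and at 6.56, 4.69 and 6.31 CPM with LiCl (log2 fold change -0.71, SE 0.18, adjusted p = 0.012 by edgeR). *Itgb8*, whose product also activates TGFβ, stood at 16.7, 13.4 and 14.3 CPM and at 8.53, 10.9 and 9.75 CPM (log2 fold change -0.61, SE 0.12, adjusted p = 0.0031 by edgeR). Neither gene overlapped between the groups. *Itgb3*, known from platelets and endothelium, stood at 7.30, 7.02 and 8.97 CPM in the controls and at 5.50, 4.73 and 5.82 CPM with LiCl (log2 fold change -0.54, SE 0.14, adjusted p = 0.012 by edgeR, and 0.051 without control 3). All 4 of the genes *Itgb3*, *Itgb5*, *Itgb6* and *Itgb8* fell at an adjusted p below 0.05, where 22.4% of all genes did. The log2 fold change of *Itgav* had a 95% interval from -0.26 to 0.11.

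*Itgb4* codes for the partner of α6 in hemidesmosomes, the anchoring sites of epithelia. It stood at 7.34, 6.38 and 5.48 CPM in the controls and at 4.22, 4.62 and 4.58 CPM with LiCl, with no overlap (log2 fold change -0.52, SE 0.14, adjusted p = 0.014 by edgeR, and 0.052 without control 1). *Itgb7*, the gene of a leukocyte chain, was near 1 CPM in both groups and did not pass the test (log2 fold change 0.18, 95% interval from -0.38 to 0.74).

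Of the laminin receptors that are not integrins, *Bcam* rose. BCAM binds the α5 chain of laminins. The gene stood at 281, 297 and 252 CPM in the controls and at 345, 358 and 339 CPM with LiCl, a 1.26-fold increase without overlap (log2 fold change 0.33, SE 0.06, adjusted p = 0.0023 by edgeR). *Dag1*, which codes for dystroglycan, had 233 ± 11 CPM in the controls and 243 ± 7.59 CPM with LiCl (SD, n = 3 each), and its log2 fold change of 0.06 had a 95% interval from -0.06 to 0.17.

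Lists of related genes are given by their counts at an adjusted p below 0.05, beside which 21.1% of all genes rose and 22.4% fell. Of 19 other basement membrane genes tested, 4 rose and 5 fell (median log2 fold change -0.08), shares near those of all genes, and those past both thresholds were *Tinagl1* (-1.58) and *Smoc2* (-1.16), which both fell. The list of other integrin ligands (16 genes) had 2 that rose and 11 that fell, with a median of -0.65 against -0.01 for all genes. Past both thresholds, *Tnc*, which codes for tenascin C, rose (1.20), and *Ccn2* (-1.66), *Fbln5* (-1.64), *Vcam1* (-1.21), *Madcam1* (-1.07) and *Tgfb1* (-1.01) fell. *Vcam1* and *Madcam1* code for ligands of α4 integrins, and latent TGFβ is bound by αv integrins. *Vcam1* stood at 29.0 ± 2.09 CPM in the controls and at 12.6 ± 1.87 CPM with LiCl (SD, n = 3 each). *Tnc* stood at 51.6, 44.8 and 51.9 CPM and at 105, 108 and 127 CPM. Thus the ligand genes did not move in 1 direction, and most of them fell.

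The list of linkers, signaling adaptors and regulators of integrins (25 genes) had 1 that rose and 10 that fell (median -0.21). The same 21.1% and 22.4% of all genes stand beside it and beside the other lists here. The rise, of *Itgb1bp1* (0.26), was lost without LiCl 3, control 1 or control 3. Only *Lims2* was past both thresholds (-1.55), at a level near 1 CPM. *Tns3*, which codes for tensin 3 of fibrillar adhesions, fell from 461, 405 and 428 CPM to 250, 285 and 271 CPM (-0.68, adjusted p = 4.8e-05 by edgeR). The number that fell was 3 when LiCl 1 and LiCl 3 were left out. Of 4 genes for hemidesmosomal and tetraspanin partners of integrins, 1 fell, *Cd151* (-0.26). Of 16 tested genes for the glycosylation of dystroglycan and for the dystrophin complex, 3 rose and 2 fell (median -0.03), with the largest changes in *Dmd* (-0.43), the dystrophin gene, and *Pomt2* (0.37), the gene of an O-mannosyltransferase. The number that rose was 1 without LiCl 3 or without control 2. Of 7 tested integrin genes of leukocytes and platelets that were not among the 41, 2 fell, *Itgax* (-1.33) and *Itgb2l* (-1.56), both with group means below 1 CPM.

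Markers of several cell types moved with the treatment. Those of the epithelium summed to between 1197 and 1503 CPM in the controls and 905 to 946 CPM with LiCl, and 7 of 9 fell and 1 rose. Those of the ureteric mesenchyme summed to 5627 to 6389 CPM and to 3970 to 4405 CPM, and 6 of 7 fell. Sums for endothelium (528 to 664 against 485 to 596 CPM), macrophages (73.3 to 115 against 68.4 to 87.7 CPM), glia and neurons (226 to 253 against 193 to 243 CPM) and nephron progenitors (79.3 to 85.9 against 71.0 to 84.0 CPM) overlapped between the groups. Of these, 1 of 8, 4 of 8, 1 of 7 and 3 of 6 genes fell and 0, 1, 0 and 2 rose, and no marker of these 6 lists was under 10 counts in every sample. Of the skeletal muscle markers 4 of 6 tested rose. The tissue was labelled ureter, and its epithelial and mesenchymal markers were present in all samples. The median log2 fold changes of the epithelial and mesenchymal markers were -0.59 and -0.58, beside -0.54 for the integrin β chains and 0.12 for the laminins. The part of these shifts in the changes of the 40 genes was not tested.

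The longest of the 40 genes deviated together within groups. Among the genes with a length of 8105 bases or more, which held 19 of the 40, the median log2 deviation of all genes from their own group mean was 0.07 in control 1, -0.08 in control 2, -0.04 in LiCl 1 and 0.04 in LiCl 2. Of the 7 genes of 13000 bases or more (*Lama2*, *Hspg2*, *Fras1*, *Frem1*, *Frem2*, *Itga1* and *Itga4*), 6 were highest in control 1 and lowest in control 2, the exception being *Itga4*, and all 7 were lowest in LiCl 1. *Fras1*, with 17709 bases, deviated by 0.41, -0.28 and -0.13 in the controls and by -0.39, 0.35 and 0.03 with LiCl. With an offset for gene length, an alternative added after the data were seen, *Fras1* had a log2 fold change of -1.21 (adjusted p = 6.9e-05 by edgeR). None of the 17 calls was lost and 3 were gained, *Lama5* (adjusted p = 0.04), *Agrn* (0.0097) and *Frem1* (0.017).

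**Figure D5:**
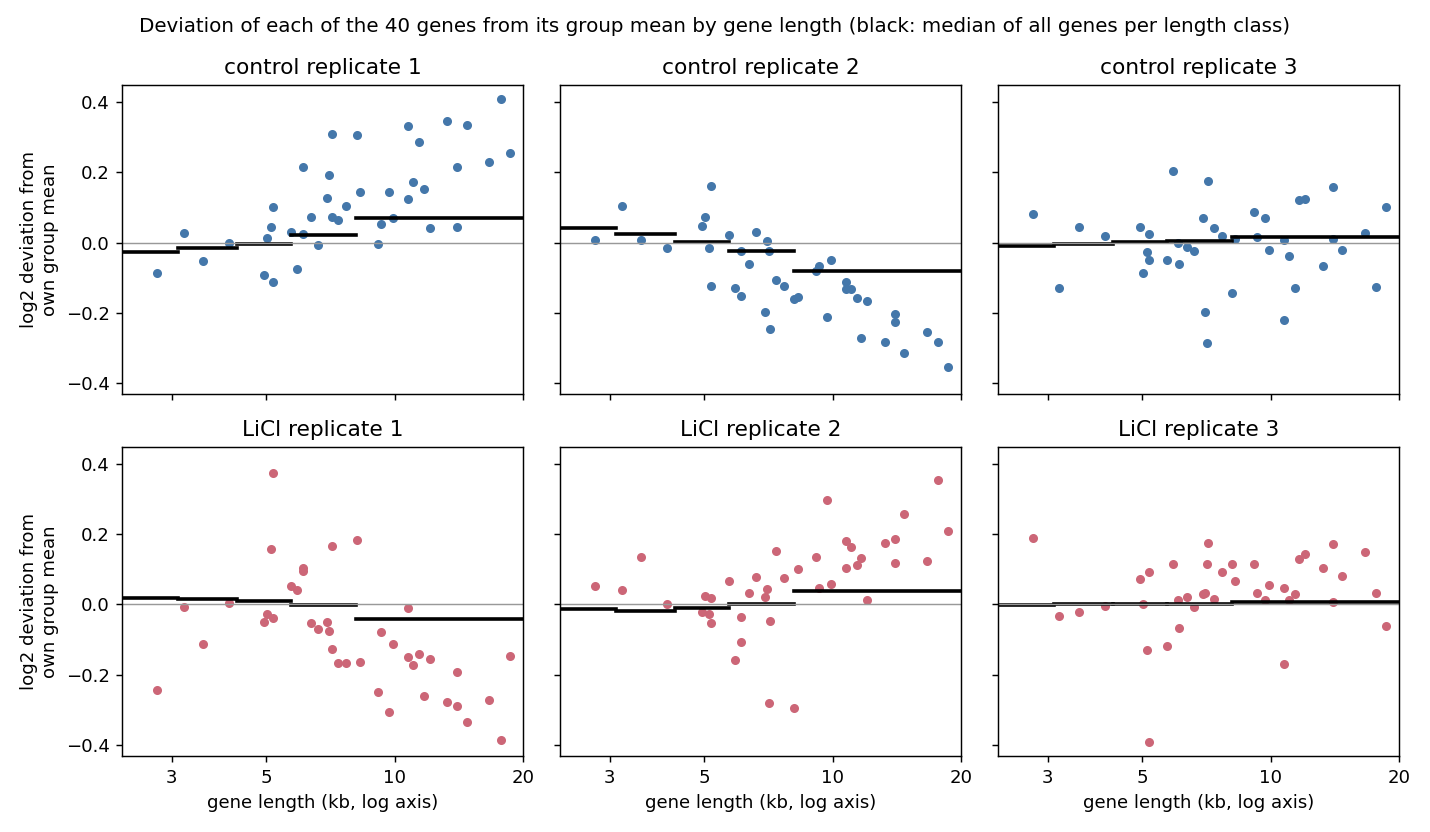
Log2 deviation of each of the 40 genes from its own group mean (points, vertical axis) against gene length (kb, log axis) in each sample, with black lines for the median of all genes in each class of length. Long genes lie above 0 in control 1 and LiCl 2 and below 0 in control 2 and LiCl 1, *Fras1* farthest among the controls at 0.41.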

How the data were processed

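Bulk RNA-Seq was analysed from 6 samples of wildtype ureter explants, 3 with water and 3 with 15 mM LiCl, grouped by their labels. The deposited counts per gene were made by the authors with featureCounts from reads aligned to GRCm39; the study's methods name HISAT2, whereas the submitters' processing notes list STAR 2.7 beside fastp 0.23, featureCounts 2.0 and DESeq2 1.40. The strand setting of the counting was not given in the sources used here, which leaves values of overlapping antisense genes and of near-identical paralogs uncertain. The deposited FPKM values match counts divided by DESeq2 size factors and a whole-number gene length (tolerance 0.05 bases) in 100% of the 18535 genes with over 50 counts. Symbols came from GENCODE vM21, a table made for GRCm38 (52073 of 56748 identifiers), so no coordinates of counted genes are given.

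Counts were tested with edgeR 4.0.16 (R 4.3.3; genes kept by filterByExpr, libraries scaled by TMM, p-values of the quasi-likelihood F test adjusted by Benjamini-Hochberg over 18188 genes; common dispersion 0.0066). The standard error of a fold change is its size over the root of F. Values per sample are TMM-scaled CPM. Chain shares used FPKM and an exact two-sided permutation test. In simulated counts for this comparison (18329 genes, 200 changed), 100% of the changed genes were recovered by edgeR and 99.5% by DESeq2. All planted changes were larger than the study's fold threshold, and every gene had the common dispersion. The recovery therefore does not measure what would be found for smaller changes or for genes with a wider spread. Counts per library of 28473436 to 31266945 set the precision, and intervals on counts cover counting error only. No library was a copy of another: pairs within a group differed by a chi-square of 5.93 to 14.7 per degree of freedom.

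The genes and lists were chosen with earlier results of these data known. Values per sample are given for genes past both thresholds of the study, for the 12 other called genes with the largest change and for the most abundant chain of each laminin and integrin family; of related lists, genes past both thresholds are named, or otherwise the 2 with the largest change. *Npnt*, *Itga9*, *Itga6*, *Itga7* and others were named to account for all genes. Outside this rule, *Tns3* and *Itgb1bp1* of the linker list were named as well. Alternatives were other scalings, filters, DESeq2 1.42.0, limma 3.58.1 on log2(FPKM + 1) or log2(FPKM + 0.1), glmTreat, a replicate block and leaving out samples. One gene of the related lists is not reported here.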

Additional observations from a re-analysis of the deposited data

How the results depend on the processing

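No called direction of the 40 genes reversed in any of 17 settings: of 672 values, 609 stayed on the same side of the threshold, most of them genes not called, while 40 lost a call and 23 gained one. Of the 17 called genes, 7 were called in every setting (*Lamb1*, *Lamb3*, *Lamc3*, *Fras1*, *Itga4*, *Itgb5* and *Bcam*), and of the 23 not called, 13 were called in none. Between samples of the same replicate number the correlations of deviations were 0.0068, -0.14 and 0.12, which does not settle whether they were paired. Pairs of unlike number ran from -0.17 (control 3 with LiCl 1) to 0.14 (control 2 with LiCl 1). The block used the numbers, and no other pairing was fitted. With the replicate block, *Itga1* alone was lost (-0.56, adjusted p = 0.057 by edgeR), leaving 12 genes that fell.

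Past both thresholds, 0 of the 40 genes rose, and 0 to 1 when a single sample was left out (1, *Lamc3*, without LiCl 3 or control 1); 1 fell, and 0 by glmTreat, which tests against the fold threshold itself. Of all genes, 498 rose and 835 fell, against 176 and 141 by limma on log2(FPKM + 1), 328 and 413 on log2(FPKM + 0.1), 168 and 136 on log2(FPKM + 1) without a filter and 172 and 162 by glmTreat. By the adjusted p alone, 13 of the 40 genes fell, against 8 to 16 when 1 sample was left out and 8 by limma on log2(FPKM + 1) without a filter.

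Leaving out LiCl 1 and LiCl 3, chosen after the data were seen, gave 2014 genes that rose and 2117 that fell, against 3844 and 4071 with all samples (at most 3622 and 3644 over all settings with fewer samples), and 6 of the 40 genes fell. In that setting other basement membrane genes gave 2 rather than 4 that rose (5 without control 1), hemidesmosomal partners 0 rather than 1 that fell, linkers 0 that rose and 3 that fell (1 and 10 before), the dystroglycan list 0 and 0 (3 and 2 before) and leukocyte integrins 0 rather than 2 that fell. One hemidesmosomal partner rose without a filter or with the length offset. Of the linkers, 2 rose without a filter and 0 without LiCl 3, control 1 or control 3, a range of 0 to 1 over single samples. Of the dystroglycan list, 1 rose with library sizes only, with the replicate block, and without LiCl 3 or control 2 (range over single samples 1 to 2). Of the leukocyte integrins, 0 fell with at least 10 counts in every sample or by limma on log2(FPKM + 1) or log2(FPKM + 0.1), and 1 on log2(FPKM + 1) without a filter. With CPM not divided by length, 6 of 29 chain shares moved by more than their spread. The causes were not tested. At 3 samples per group, wide intervals such as those of *Hspg2* and *Itga7* limit what could be seen.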
